A study of Mus musculus with 6 samples.

Results

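The PYHIN (IFI200) family of interferon-activated genes was examined in SL4 cells through 10 members, Aim2, Ifi203, Ifi204, Ifi205, Ifi207, Ifi208, Ifi209, Ifi211, Ifi213 and Mndal. The members were found by their gene symbol, for belonging to the family, and each symbol named 1 of the 53700 genes in the deposited table. Earlier results of these data were known when they were chosen. The SL4 line comes from mouse CRC and carries luciferase in both groups. RNA-seq covered 3 pLV-Control libraries, from SL4 cells without SEMA6A overexpression, and 3 pLV-SEMA6A libraries, from SL4 cells made to overexpress SEMA6A stably by a lentivirus. Neither the labels nor the methods describe separately derived pLV-SEMA6A lines or the vector of the control cells, so an effect of SEMA6A and a difference between lines cannot be told apart. Nothing says that the 3 libraries of a group came from separate cultures, and p-values then measure only the spread between these libraries, which may be technical.

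PYHIN proteins begin with a pyrin domain, which binds other pyrin domains, and most of them end in HIN domains that bind double-stranded DNA. AIM2 senses DNA in the cytosol and joins the adaptor ASC (Pycard) and caspase-1 (Casp1) into an inflammasome, and mouse IFI204 is a counterpart of the human DNA sensor IFI16. Many of the genes are induced by interferon through the interferon-stimulated response element (ISRE), a promoter sequence bound by the ISGF3 complex, which holds STAT2 and IRF9. They are best known from myeloid and lymphoid cells.

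Values were TPM, a relative measure of transcripts that is corrected for their length and keeps no read depth. Over all listed genes the values of a library added up to 977400 to 986444 TPM, so the number of reads behind a value is unknown, no detection limit is given, and a listed 0 can be a failed estimate. Sema6a was listed at 0 in every pLV-Control library, and the pLV-SEMA6A libraries held 98.7, 118 and 112 TPM, the direction of the labels. Of 9 colon epithelium markers only Lgals4 averaged at least 1 TPM, and Epcam, Krt18, Krt20, Cdh1 and Cdx2 were under 0.1 TPM in every library, so the labelled CRC line did not carry these defining markers. Of 10 haematopoietic markers, 7 were under 0.1 TPM in every library, among them Ptprc, Adgre1, Itgam, Lyz2, Cd3e and Laptm5. The sum of that list was 12.7 to 13.7 TPM in pLV-Control and 16.2 to 18.6 TPM in pLV-SEMA6A, most of it Cd14. Of the markers, Lgals4 was called lower (2.15 against 0.363 TPM) by the criterion given below. Of 5 fibroblast markers, 3 averaged at least 1 TPM, Col1a1 was called higher (1.27 against 3.60 TPM) and Pdgfra lower (1.76 against 0.78 TPM), and the sum of the list was 5.06 to 6.38 TPM in pLV-Control and 6.96 to 7.99 TPM in pLV-SEMA6A. Lgals4 and Pdgfra averaged under 1 TPM in pLV-SEMA6A and passed the 1 TPM filter, given below, only through pLV-Control. Their calls were thus partly fixed by that filter. The part of these markers in the PYHIN results was not tested.

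The members lie in 1 cluster on chromosome 1, from 173350879 to 174031810 on GRCm38 in GENCODE M21, to which the Ensembl identifiers were matched. In order along the chromosome they are Aim2, Ifi213, Ifi209, Ifi208, Ifi207, Ifi204, Mndal, Ifi211, Ifi203 and Ifi205. Aim2, Ifi209 and Ifi208 are on the plus strand and the other members on the minus strand. The annotated interval of Mndal, from 173849126 to 173942491, also covers Ifi211 and nearly all of Ifi203.

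The sequence just before the transcription starts is shown because many PYHIN genes are known to respond to interferon through it. Counts of genes called lower are given by motif below, but no test here links the letters to the RNA values. RefSeq (GRCm38.p6) gave the 250 bases before the start for 9 of the 10 members, with 2 starts each for Ifi203 and Mndal. Ifi204 had no entry. The ISRE consensus was searched on both strands as 2 copies of GAAA with any 2 bases between them, and 7 of these 9 members held a match, against 3.46% of all 27025 genes (2.98% of 32851 promoters) in the table. The matches on the gene's own strand are printed 5′ to 3′ with 15 bases on either side, the motif in capitals.
Ifi203: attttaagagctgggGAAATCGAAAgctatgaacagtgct
Mndal: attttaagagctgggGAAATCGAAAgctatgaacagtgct
Ifi211: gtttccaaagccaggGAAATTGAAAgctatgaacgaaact
Ifi205: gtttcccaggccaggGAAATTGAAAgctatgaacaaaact
Ifi207: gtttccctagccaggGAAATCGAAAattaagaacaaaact
Ifi213: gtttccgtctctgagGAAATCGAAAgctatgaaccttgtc
Ifi208: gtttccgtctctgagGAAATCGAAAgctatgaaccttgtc
The first base of the motif was at −35 from the start in Ifi203 (second start), −36 in Mndal (first start), −37 in Ifi211, −41 in Ifi207, −58 in Ifi208, −73 in Ifi213 and −134 in Ifi205. The second start of Mndal held a match on the other strand, at −54. The 40 bases, motif included, were the same in Ifi203 and Mndal and the same in Ifi208 and Ifi213. Of these 40, 37 were identical between Ifi205 and Ifi211. The windows are at chr1:173942503-173942542 for Ifi203, chr1:173880199-173880238 for Mndal, chr1:173913059-173913098 for Ifi211, chr1:174031865-174031904 for Ifi205, chr1:173741826-173741865 for Ifi207 and chr1:173599321-173599360 for Ifi213, all on the minus strand, and chr1:173673592-173673631 on the plus strand for Ifi208. Because the genes belong to the same family and some of the windows are the same or nearly so, these matches are not independent of one another. A match describes letters and does not show that a factor binds there.

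Ifi209 held no match to the long motif. A shorter form, AANNGAAA, which lies inside the long motif and occurs in 21.3% of all promoters and 23.9% of genes, began at −77, at chr1:173630767-173630804 on the plus strand, and is printed with its motif in capitals.
Ifi209: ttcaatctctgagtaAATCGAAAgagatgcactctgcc
Outside its long motif, Ifi205 also held the shorter form at −228 and −33. Aim2 held neither form in its 250 bases. The motif TTCNNNGAA, the GAS element bound by STAT dimers, occurs in 7.02% of all promoters and 8.13% of genes and was in 0 of the 9 members. The exact letters GAAATCGAAA, chosen after the member sequences were seen, occur before the starts of 13 genes in the whole table. Of these 13 genes, 5 are members, 2 are the further PYHIN genes Ifi206 and Ifi214, and 6 lie outside the family. Among all tested genes with a promoter in the table, 10.5% of 9205 were called lower in pLV-SEMA6A by the criterion given below. Among the 299 with a match to the ISRE consensus it was 76 genes, 25.4%. These 76 include the members Ifi203, Ifi205, Ifi207, Ifi211, Ifi213 and Mndal and the further PYHIN gene Ifi206. Their matches are not independent of one another. For the shorter form it was 235 of 1728 genes, 13.6%, and for the GAS element 77 of 641 genes. Whether any of these motifs has a part in the fall was not tested.

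The whole 250 bases are given for Ifi207, which fell most, and for Ifi213, which fell least of the members tested, with the same motif in capitals. They are at chr1:173741810-173742059 and chr1:173599273-173599522, on the minus strand.
Ifi207: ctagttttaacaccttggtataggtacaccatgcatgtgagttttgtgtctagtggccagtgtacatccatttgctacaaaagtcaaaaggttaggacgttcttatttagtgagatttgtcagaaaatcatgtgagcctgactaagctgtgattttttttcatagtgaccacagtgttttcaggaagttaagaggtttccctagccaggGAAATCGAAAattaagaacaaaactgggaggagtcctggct
Ifi213: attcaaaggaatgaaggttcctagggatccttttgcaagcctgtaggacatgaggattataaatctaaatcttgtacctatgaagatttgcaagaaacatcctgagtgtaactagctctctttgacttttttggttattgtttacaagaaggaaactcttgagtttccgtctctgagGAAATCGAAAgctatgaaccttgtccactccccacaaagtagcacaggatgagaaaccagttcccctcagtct
Both hold the same 10 letters, and 25 of the 40 bases of their windows, these 10 included, are identical between them.

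**Figure D1:**
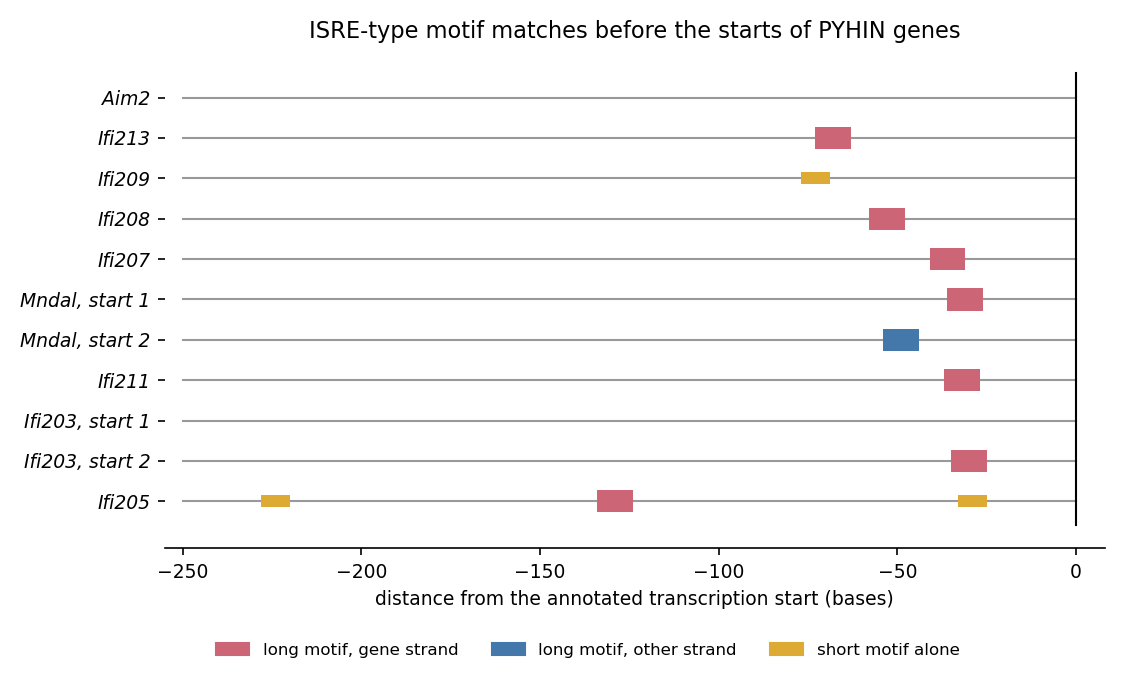
The x axis gives the distance in bases before each annotated transcription start and each line is 1 start of a member. Boxes mark matches to the ISRE-type motif on the gene's strand or the other strand, and smaller boxes the shorter form where it occurs alone. Most matches to the long motif start between −73 and −35, that of Ifi205 is at −134, and Aim2 has none. Ifi205 also has the shorter form alone at −228 and −33.

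The question for the RNA was whether PYHIN genes differed between pLV-SEMA6A and pLV-Control cells. All 10 members were lower in every pLV-SEMA6A library than in any pLV-Control library. Of these, Aim2, Ifi208 and Ifi209 averaged under 1 TPM even in pLV-Control, and Ifi208 was listed at 0 in pLV-SEMA6A. The summed TPM of the 10 members was 289, 295 and 294 in pLV-Control and 97.6, 95.5 and 92.5 in pLV-SEMA6A, so that pLV-SEMA6A cells held 32.5% of the pLV-Control level. In bulk RNA, fewer cells that express these genes and less RNA per cell cannot be told apart. Groups that do not overlap in this direction were seen in 20.9% of the 24518 genes above 0 in at least 1 library and in 34.7% of the 12510 genes tested. For each member an exact permutation test of TPM, two-sided, returned p = 0.1, which is the smallest possible with 3 libraries a group.

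The test across genes was limma on log2(TPM + 1), a scale that understates the change of low genes, over the genes that averaged 1 TPM or more. Genes were called lower at a Benjamini-Hochberg adjusted p under 0.05 and a log2 fold change under −0.5, and 10.8% of the genes tested were. Of the 10 members, 7 were tested and all 7 were called lower, and Aim2, Ifi208 and Ifi209 were below the filter. Ifi205 and Ifi207 averaged under 1 TPM in pLV-SEMA6A and passed the filter only through pLV-Control, so their call was partly fixed by the filter. Without the filter, all 10 members were tested and limma called the same 7 lower, against 5.58% of 24518 genes. Ifi208 and Ifi209 could not be called, since even a fall to 0 from their pLV-Control TPM stays under the minimum on this scale. All 10 log2 fold changes were negative, so 0 members could be called higher by limma, also at an unadjusted p under 0.05. In the filtered fit, dropping the minimum fold change cannot remove a call, so the 7 members stayed lower, beside 28.2% of the 12510 genes. With the filter off, the median log2 fold change of the 10 members was −1.49, beside −0.02 for all 24518 genes.

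**Figure D2:**
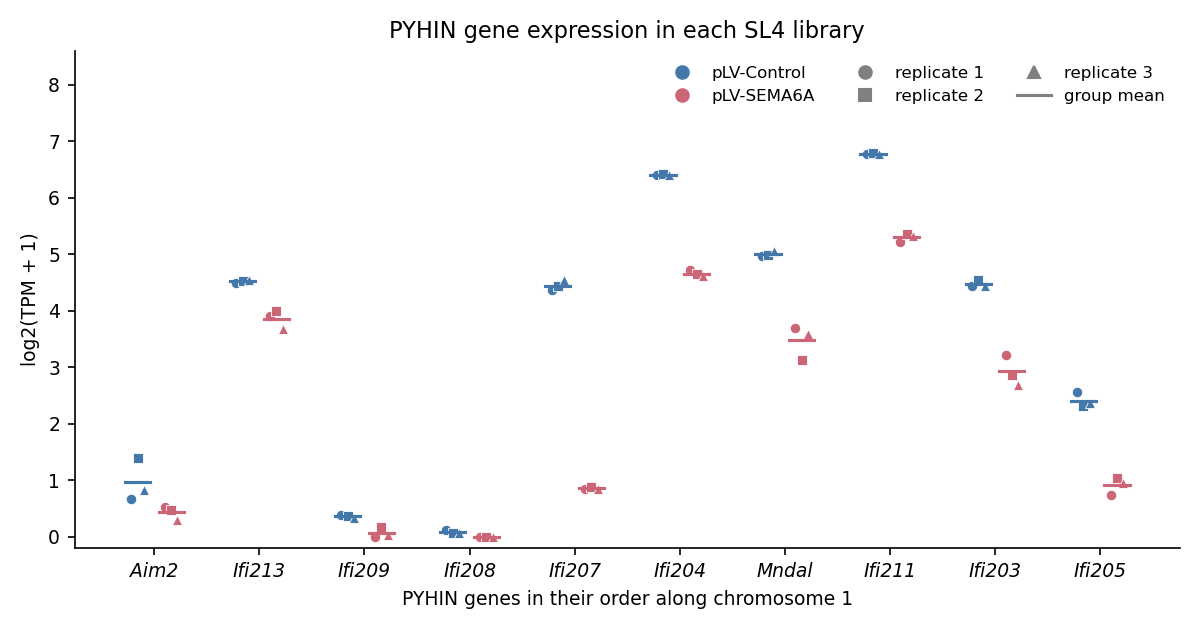
The y axis gives log2(TPM + 1) of each member in each library, with members in their order along the chromosome, symbols for the replicate and a bar for the group mean. The pLV-SEMA6A libraries lie below the pLV-Control libraries in every member, by the widest margin in Ifi207, and Ifi208 and Ifi209 are close to 0 in both groups.

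Ifi204, the counterpart of the human sensor IFI16, was at 83.1, 84.3 and 83.7 TPM in pLV-Control cells against 25.2, 24.0 and 23.3 TPM in pLV-SEMA6A. The libraries of each group lay within a narrow range, far from the other group. The log2 fold change was −1.75 (SE 0.04, adjusted p = 1.0e-06 from limma), and the TPM in pLV-SEMA6A was 28.9% of that in pLV-Control.

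Ifi211, whose older symbol is Mnda, had the highest TPM of the members in both groups. It was at 108, 109 and 108 TPM in pLV-Control cells against 36.2, 40.1 and 39.0 TPM in pLV-SEMA6A. The log2 fold change was −1.47 (SE 0.04, adjusted p = 3.0e-06 from limma).

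Ifi207 fell most. It was at 19.5, 20.5 and 22.3 TPM in pLV-Control, close to Ifi203 and Ifi213, and at 0.79, 0.83 and 0.80 TPM in pLV-SEMA6A. All 3 pLV-SEMA6A libraries were close to each other and just under 1 TPM. The ratio of the group means was 25.7, and the log2 fold change was −3.59 (SE 0.08, adjusted p = 1.0e-06 from limma). Of all 12510 genes tested it ranked 7 by the size of its fall with a pseudocount of 1. Ifi207 passed the filter only through pLV-Control, and this pseudocount limits how far a gene of low TPM can fall. The rank thus depends partly on the filter and on abundance, and by itself does not make the fall exceptional. With a pseudocount of 0.1 in place of 1 the log2 fold change of Ifi207 was −4.52, since the pLV-SEMA6A values were low.

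Mndal, which is named for its likeness to the myeloid nuclear differentiation antigen, was at 30.2, 30.6 and 32.2 TPM in pLV-Control cells against 11.97, 7.75 and 11.0 TPM in pLV-SEMA6A. Replicate 2 of pLV-SEMA6A was below the other libraries of its group. The log2 fold change was −1.53 (SE 0.14, adjusted p = 0.00031 from limma), and −1.36 without that library.

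Ifi203 was at 20.5, 22.2 and 20.7 TPM in pLV-Control cells against 8.28, 6.30 and 5.45 TPM in pLV-SEMA6A, where replicate 1 was the highest. It fell by 1.54 on the log2 scale (SE 0.13, adjusted p = 0.00021 from limma). Without that library it was −1.69.

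Ifi205, a low member, was at 4.86, 3.95 and 4.15 TPM in pLV-Control cells against 0.67, 1.05 and 0.94 TPM in pLV-SEMA6A. The groups were well apart although the values were small. The log2 fold change was −1.50 (SE 0.14, adjusted p = 0.00030 from limma), and −2.18 with a pseudocount of 0.1.

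Ifi213, also known by the symbol Pydc4 for a pyrin-domain-containing protein, fell least. It was at 21.5, 22.0 and 22.2 TPM in pLV-Control cells against 14.0, 14.9 and 11.8 TPM in pLV-SEMA6A. The pLV-SEMA6A libraries kept 61.9% of the pLV-Control level. The log2 fold change was −0.66 (SE 0.09, adjusted p = 0.0012 from limma), and it was the only tested member that did not pass a minimum of 1 on this scale, where 2.43% of all tested genes were called lower.

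Aim2, the inflammasome sensor, was near the lower end of what the table lists. It was at 0.58, 1.63 and 0.76 TPM in pLV-Control cells against 0.44, 0.39 and 0.23 TPM in pLV-SEMA6A. Replicate 2 of pLV-Control was more than the sum of the other 2 pLV-Control libraries. In the fit without a filter the log2 fold change of −0.52 did not pass (SE 0.21, adjusted p = 0.147 from limma).

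Ifi209, also named Pyhin1, was at 0.30, 0.28 and 0.26 TPM in pLV-Control cells against a listed 0, 0.12 and 0.02 TPM in pLV-SEMA6A. Without a filter its log2 fold change was −0.29 (SE 0.05, adjusted p = 0.0135 from limma), under the minimum of 0.5. On this scale even a fall to 0 from its pLV-Control mean of 0.28 TPM could not reach that minimum. Ifi208, also known as Pydc3, was at 0.08, 0.04 and 0.04 TPM in pLV-Control and listed at 0 in all pLV-SEMA6A libraries (adjusted p = 0.127 from limma without a filter). From that level Ifi208 could not reach the minimum either. Ifi208 and Ifi213 share the 40 bases printed above that hold their ISRE-type motif, and their levels were 0.053 and 21.9 TPM in pLV-Control.

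The size of the fall varied among the members. To compare them, the log2(TPM + 1) of a member was subtracted from that of another within each library, and these differences were compared between the groups over all 21 pairs of tested members. In 12 pairs the groups did not overlap, a share near the 54.7% of all pairs of tested genes for which this held, so the count says nothing particular to the family. These were the 11 pairs that include Ifi207 or Ifi213, which are not separate results since they share a member, and the pair Ifi204 and Ifi211. Ifi207 fell by 1.84 more than Ifi204 (SE 0.06) and Ifi211 fell by 0.82 more than Ifi213 (SE 0.11), both on the log2 scale. Ifi204 and Ifi211 differed by 0.28 on this scale (SE 0.07). An exact permutation test, two-sided, gave p = 0.1 for each of these 3 pairs, the smallest possible, so no pair could pass an adjusted threshold. In the other 9 pairs the groups overlapped, with differences of at most 0.25 and standard errors of 0.09 to 0.27. The place of the low gene Ifi205 depends on the pseudocount. With 0.1 in place of 1, a setting added after the data were seen, 14 pairs did not overlap, and Ifi205 fell by 0.68 more than Ifi211 (SE 0.16) and by 0.39 more than Ifi204 (SE 0.22). Ifi204 is thus next to Ifi207 in the size of its fall with a pseudocount of 1, and Ifi205 is next with 0.1 and by the ratio of mean TPM, which was 4.87 for Ifi205 and 3.46 for Ifi204.

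The make-up of the family shifted accordingly, and its shares restate the differences between members given above. Such differences did not overlap between the groups in 54.7% of all pairs of tested genes. Which ranges of shares do not overlap thus says nothing particular to the family. Ifi211 and Ifi204 together held 65.1% to 66.2% of the family's TPM in pLV-Control and 63.0% to 67.3% in pLV-SEMA6A, ranges that overlap. The share of Ifi207 went from between 6.76% and 7.57% to between 0.81% and 0.87%. The share of Ifi213 went from between 7.45% and 7.54% to between 12.7% and 15.6%. Ifi204 went from between 28.5% and 28.8% to between 25.1% and 25.9%. Ranges of the groups also did not overlap for Ifi205 and, at the floor of the table, for Ifi208, and they overlapped for Ifi203, Ifi209, Ifi211, Mndal and Aim2.

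**Figure D3:**
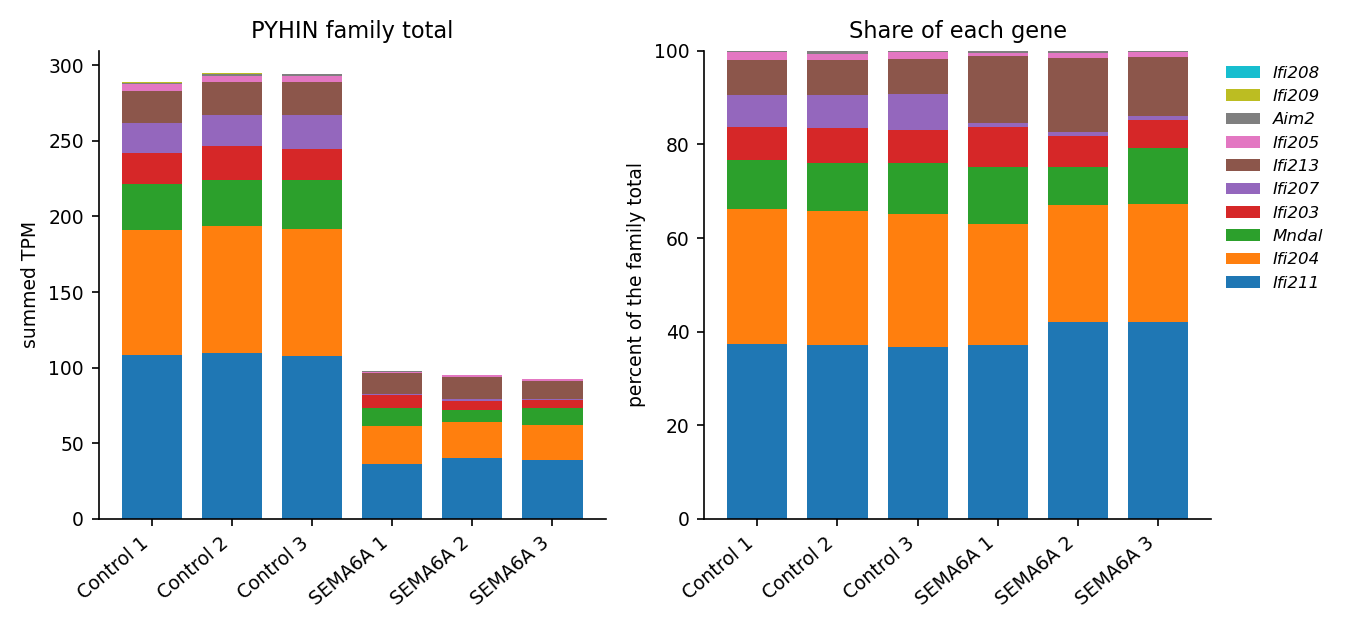
Stacked bars give the summed TPM of the 10 members in each library (left) and the percent of that sum held by each member (right). The total is 289 to 295 TPM in pLV-Control and 92.5 to 97.6 TPM in pLV-SEMA6A, with Ifi211 and Ifi204 the main parts, Ifi207 nearly gone and Ifi213 taking a larger share in pLV-SEMA6A.

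Several members share transcript stretches with each other, so reads could have been assigned to the wrong gene. The share of a member's distinct 31-base stretches that also occur in transcripts of other genes was counted over GENCODE M21. It was 78.9% for Ifi211, which shares 49.5% with Ifi205, 38.6% with Ifi204 and 25.2% with Mndal. It was 47.2% for Ifi209, nearly all with Ifi214. The share was 34.6% for Ifi204 and for Ifi208, 28.7% for Mndal, 26.6% for Ifi213, 22.1% for Ifi205 and 21.9% for Ifi203. It was lowest for Ifi207 (14.8%) and Aim2 (5.26%). Ifi203 shares most with the pseudogene Ifi203-ps (15.9%), and Ifi213 and Ifi208 share 6.67% and 8.47% with Ifi206, a PYHIN gene outside the 10 members. Sums over genes that share stretches depend less on how reads were split, although TPM is divided by transcript length and a sum can still move when reads change place. For Ifi203, Ifi204, Ifi205, Ifi207, Ifi211 and Mndal the sum was 266, 271 and 271 TPM in pLV-Control and 83.2, 80.0 and 80.5 TPM in pLV-SEMA6A. Over the 10 members with Ifi206, Ifi214 and Ifi203-ps it was 298, 306 and 304 TPM in pLV-Control against 98.6, 96.6 and 93.4 TPM. Both sums were lower in every pLV-SEMA6A library, and how far reads of 1 gene were counted for another, Ifi207 included, was not tested.

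**Figure D4:**
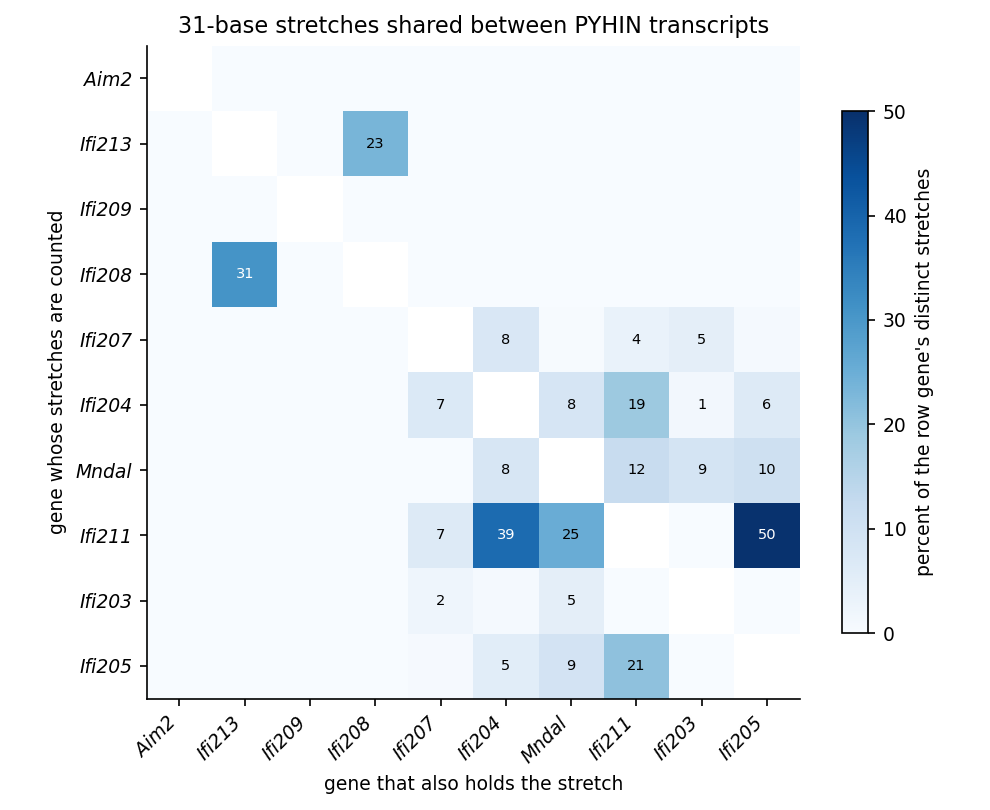
Each cell gives the percent of the row gene's distinct 31-base transcript stretches that the column gene also holds, for members in their order along the chromosome. Ifi211 shares most, with Ifi205, Ifi204 and Mndal, Ifi208 and Ifi213 share with each other, and Aim2 shares with no member.

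The surrounding segment of chromosome 1 gave few values to compare. The 10 protein-coding genes on each side of the cluster and the 4 between members were examined, and 19 of these 24 were listed at 0 in every library. The only one tested was Ifi206, a further PYHIN gene next to Aim2. It was at 8.93, 10.5 and 9.02 TPM in pLV-Control cells against 0.83, 0.86 and 0.70 TPM in pLV-SEMA6A cells. Ifi206 fell by 2.54 on the log2 scale (SE 0.11, adjusted p = 1.3e-05 from limma). It passed the filter only through pLV-Control. Its promoter holds the same ISRE-type letters, and 39 of the 40 bases of its window, the motif included, are identical to those of Ifi208 and Ifi213.
Ifi206: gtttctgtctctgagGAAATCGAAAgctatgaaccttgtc
This window is at chr1:173491334-173491373 on the minus strand of GRCm38.p6. The further PYHIN genes Ifi202b and Ifi214 were listed at 0 in all libraries but 1, where Ifi214 was at 0.04 TPM. Of the 21 flanking genes outside the family, 18 were at 0 throughout and none reached the filter.

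The partners through which PYHIN proteins signal were described with a list of DNA sensing and inflammasome genes. Of the 31 genes measured, 24 were tested, 7 were called lower and 1 higher, where 10.8% of all tested genes were called lower and 5.12% higher. Centring the libraries on their medians gave 7 lower and 3 higher, against a background of 7.68% and 8.01%. Uncentred, the list had a median of −0.09 on the log2 scale, near the −0.06 of all tested genes. Of the genes that act with or after AIM2, Casp1 and the cytokine gene Il1b were listed at 0 in every library and Pycard was at no more than 0.46 TPM in any. Gsdmd, which encodes the pore protein gasdermin D, was at 40.7, 43.2 and 41.5 TPM in pLV-Control cells against 24.7, 22.0 and 25.5 TPM, and the cytokine gene Il18 was at 3.86, 4.55 and 2.59 TPM against 1.09, 1.89 and 1.10 TPM, and both were called lower. These 5 genes, and the next 3, were named after their values were seen. The cytosolic DNA sensor Cgas changed by 0.19 on the log2 scale (adjusted p = 0.198), its adaptor Sting1 by 0.031 (adjusted p = 0.677) and the kinase Tbk1 by −0.031 (adjusted p = 0.788, all from limma), so that none of them passed the test. Sting1 was at 40.3, 44.5 and 45.5 TPM in pLV-Control cells against 42.8, 45.5 and 44.9 TPM in pLV-SEMA6A, where the groups overlapped.

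The called genes of that list with the largest changes were Zbp1, Casp4, Dhx9 and Ikbke. Zbp1, an interferon-inducible sensor of Z-form nucleic acids, was at 21.5, 21.1 and 20.9 TPM in pLV-Control cells against 4.88, 3.69 and 4.46 TPM in pLV-SEMA6A. Casp4, the caspase that senses bacterial lipopolysaccharide, had a log2 fold change of −1.49, and Ikbke, a kinase that phosphorylates interferon regulatory factors, was at 8.44, 6.33 and 8.01 TPM against 3.60, 2.95 and 3.26 TPM. The helicase gene Dhx9 rose, with a log2 fold change of 1.07 (SE 0.03, adjusted p = 3.5e-06 from limma). Of the uncalled genes, the DNA-binding protein gene Hmgb1 was the most abundant, with a log2 fold change of 0.34. Lrrfip1, the next, had one of 0.497, just under the minimum of 0.5, and passed it with 0.59 after median centring.

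The genes that carry the interferon signal were described with a second list. Of its 27 genes 21 were tested, 9 were called lower, against the 10.8% of all tested genes, and 0 higher by limma, with 16 lower and 2 higher at an unadjusted p under 0.05, where 32.6% of all tested genes were lower and 22.3% higher. On the log2 scale this list had a median of −0.39. Interferons were low in both groups, with Ifna1, Ifng and Ifnl2 listed at 0 in every library and Ifnb1 at no more than 0.25 TPM. Irf7, the factor that amplifies interferon transcription, was at 212, 211 and 217 TPM in pLV-Control cells against 25.2, 24.0 and 21.6 TPM in pLV-SEMA6A. Irf5, another interferon regulatory factor, was at 5.87, 6.36 and 6.88 TPM against 1.85, 1.37 and 1.00 TPM. Stat2, a subunit of ISGF3, was at 57.2, 59.2 and 59.7 TPM against 17.2, 18.7 and 15.8 TPM. Usp18, which damps type I interferon signalling, was at 147, 157 and 157 TPM against 30.2, 31.1 and 31.9 TPM. In each of these 4 genes the groups were far apart, and each was called lower. Irf9, another ISGF3 gene, named after its values were seen, had a log2 fold change of −1.21 and was called lower. Jak1 (0.19) and the phosphatase gene Ptpn2 (−0.051) were the most abundant uncalled genes of this list, and Ptpn2 turned to 0.043 after median centring.

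Among the 12503 tested genes outside the family, the 5 most like it were Ptgs2, Ifi44, Irf7, B2m and Rtp4. Likeness was the Pearson correlation over the 6 libraries with the mean log2(TPM + 1) of the 7 tested members, which ran from 0.99969 for Rtp4 to 0.99997 for Ptgs2. The 6 libraries fall into 2 groups, so this measure mainly follows the difference between the groups, and 450 genes had a correlation above 0.99. Ptgs2, which encodes the prostaglandin synthase COX-2, was at 159.8, 158 and 161 TPM in pLV-Control cells against 67.6, 65.8 and 64.5 TPM in pLV-SEMA6A. Ifi44 and Rtp4 are interferon-induced genes and B2m encodes the light chain of MHC class I.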

How the data were processed

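Poly-A-selected RNA of 3 pLV-Control and 3 pLV-SEMA6A libraries was sequenced. The authors deposited TPM per library and a mean for each group, which was not used. The submitters' processing notes name RSEM, Bowtie2, HISAT and the build mm39 without roles or versions, and the annotation is not given in the sources used here. The study names DESeq2, which needs counts and was not run. GENCODE M21 and RefSeq tables, both on GRCm38, gave positions and sequences by identifier or symbol (97.0% of identifiers matched GENCODE M21), and no coordinate was converted.

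limma 3.58.1 (R 4.3.3) was run with a trend on log2(TPM + 1), with no covariate beside the group, for the 12510 genes that averaged 1 TPM or more. P-values were Benjamini-Hochberg adjusted over all genes tested. Only the limma fit was tested on simulated data. A call needed an adjusted p below 0.05 together with a log2 fold change beyond 0.5 either way. The members, gene lists and tests were chosen with earlier results of these data known. Named genes are all members, the 4 largest called and 2 most abundant uncalled genes of each list, called flanking genes, and the 5 genes most like the family, and exceptions are marked. The results of some genes are not reported here.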

Additional observations from a re-analysis of the deposited data

How the results depend on the processing

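The fall of the 7 tested members kept its direction and its call in all 10 other fits, which were a pseudocount of 0.1, no filter, the replicate block, median centring and leaving out each library in turn, and the largest adjusted p from limma among them was 0.0067, for Ifi213. With a minimum fold change of 1 on the log2 scale, 6 members were called lower. Without a minimum it was 7, which was fixed beforehand, since dropping the minimum removes no call. Leaving out each library in turn moved the log2 fold change of Ifi207 between −3.63 and −3.54 and that of Mndal between −1.64 and −1.36. Centring each library on its median raised log2 fold changes by 0.09, and the calls over all genes went from 10.8% lower and 5.12% higher to 7.68% lower and 8.01% higher. The labels do not say what the replicate numbers stand for. Deviations of same-numbered libraries from the group means correlated at −0.06 on average. With so few libraries this cannot settle whether the numbers mark a batch. With the number as a replicate block, 7 members, 7 sensing genes and 9 interferon signalling genes were called lower, and the adjusted p of Ifi205 was 0.0043 from limma. These counts are those of the fit without the block, and the block changed no member's call.

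For the DNA sensing and inflammasome list, the count called lower was 11 without a minimum fold change and 3 with a minimum of 1. The count called higher, 1 as reported, was 3 with centring, 3 with a pseudocount of 0.1, 5 without a minimum, and 1 to 3 when each library was left out. It was 3 without pLV-SEMA6A replicate 1, and 2 without pLV-SEMA6A replicate 3, pLV-Control replicate 1 or pLV-Control replicate 3. For the interferon signalling list, 16 were lower and 2 higher without a minimum. Ptpn2 changed sign with centring, to 0.043, as centring shifts every gene by the same amount. Read depth behind low members such as Aim2, Ifi208 and Ifi209 is unknown.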
